A study of Mus musculus with 4 samples.

Results

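The genes described are the 4 platelet-derived growth factor (PDGF) ligand genes Pdgfa, Pdgfb, Pdgfc and Pdgfd, the receptor genes Pdgfra and Pdgfrb, and Rgs5, a marker of pericytes. They were chosen by name, and all 7 were found among the 27179 Entrez genes of the deposited table. The libraries are mRNA sequencing of mouse kidney medulla at postnatal day 14, strain given as mixed C57BL/6. Wild type controls gave 2 libraries (labelled WT), and animals with the genotype Actr3-fl/fl*Cdh16-Cre gave 2 (labelled KO). In the latter a floxed Actr3, which encodes a core subunit of the actin-nucleating Arp2/3 complex, was combined with a Cre driven by the promoter of Cdh16, a cadherin gene of kidney tubule epithelium. Whether the controls carried the floxed allele or Cre is not given in the sources used here.

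PDGFs are secreted dimers that drive the growth and migration of mesenchymal cells. The A and B chains are secreted as active dimers after cleavage inside the cell, whereas the C and D chains carry an extra CUB domain that is removed outside the cell. The alpha receptor binds the A, B and C chains, and the beta receptor binds B and D. In developing vessels endothelial PDGF-B recruits pericytes that bear the beta receptor, and in the kidney both receptors are carried by interstitial and mesangial cells and are known for their part in fibrosis. Rgs5 encodes a GTPase-activating protein that shortens G protein signalling and is abundant in pericytes.

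Between 36482238 and 40784436 reads were recovered from each library. Actr3 itself was not lower but higher in the libraries labelled KO (log2 difference 0.71, adjusted p = 0.000494 in the limma test described below). Its normalized read counts were 8065 and 7275 in the libraries labelled WT and 12587 and 12480 in those labelled KO. A count over the whole gene includes exons that Cre leaves in place, so it cannot check the deletion, and every direction below rests on the labels. Of the 10 medullary tubule markers, which include the salt and water transporter genes Slc12a1 and Aqp3, each was detected in every library. Their summed normalized counts were 539729 and 587330 in the libraries labelled WT and 298172 and 207795 in those labelled KO, and 9 of the 10 were lower, as were 24.9% of all tested genes. The other, Umod, was not called, at 136828 and 143709 against 203680 and 138033. Named after its values were seen, it held the larger part of the KO-labelled sums.

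The called ligands moved in opposite directions, while neither receptor passed the test. In the libraries labelled KO, Pdgfb and Pdgfd were higher and Pdgfa and Rgs5 lower, while Pdgfc, Pdgfra and Pdgfrb were not called. The test was limma on log2(normalized count + 1), with Benjamini-Hochberg adjustment over 16253 genes and a threshold of 0.05. It called 26.3% of all tested genes higher and 24.9% lower, or 51.2% in all, so that 4 of 7 called members is a share near that of genes in general. The groups did not overlap, with the KO-labelled values higher, for Pdgfb, Pdgfd and Pdgfrb (39.8% of tested genes) and, with them lower, for Pdgfa and Rgs5 (38.7% of tested genes). Log2 differences below are KO minus WT by label, and a fold compares the mean normalized counts of the groups.

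**Figure D1:**
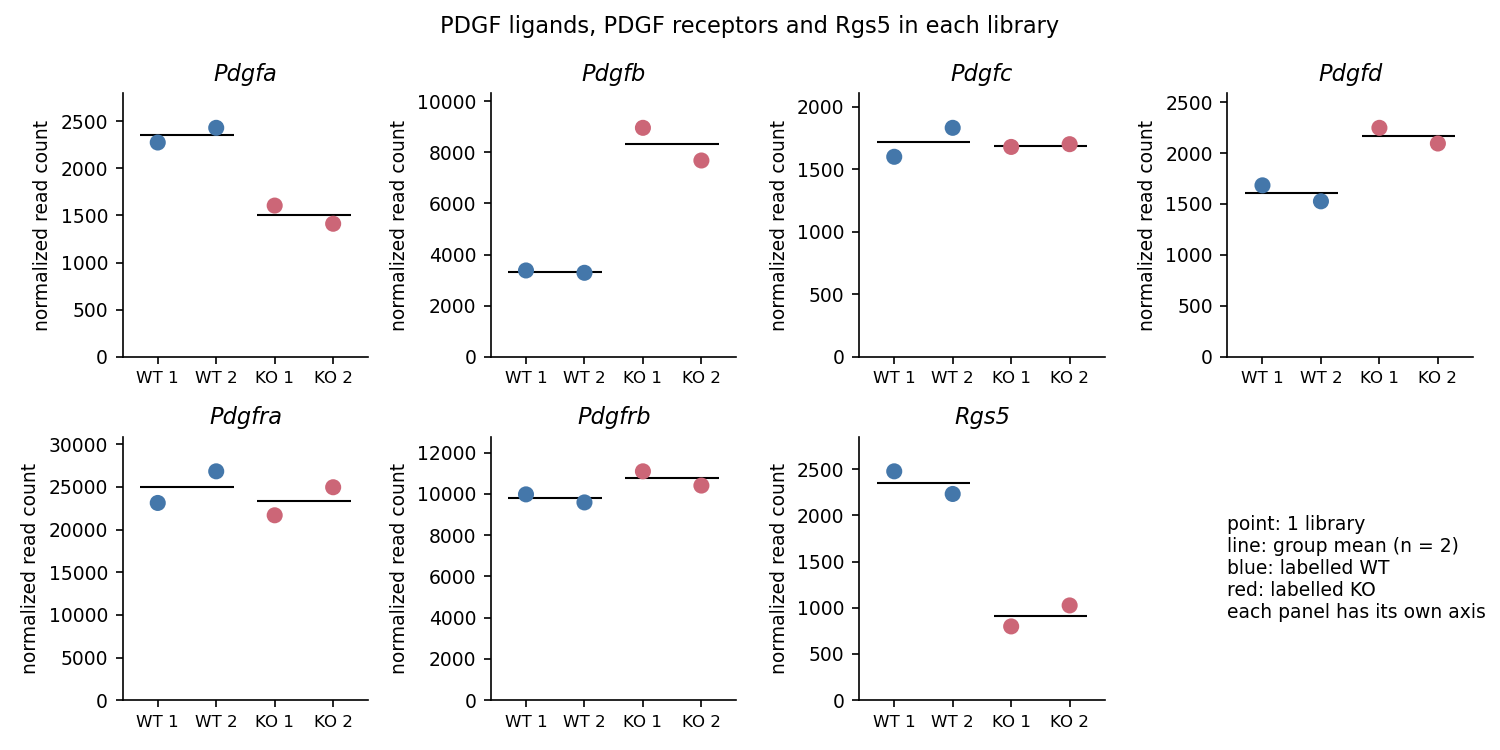
Normalized read counts (vertical axes, each starting at 0) of the 7 genes in the 4 libraries (horizontal axes); points are libraries and lines are group means of 2. Pdgfb stood at 8960 and 7681 in the libraries labelled KO against 3375 and 3284 in those labelled WT, while the points of Pdgfra and Pdgfc overlapped between the groups.

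Pdgfb, the chain that binds both receptors, had the highest rise among the members. Its normalized counts were 3375 and 3284 in the libraries labelled WT and 8960 and 7681 in those labelled KO. The groups did not overlap, and the lower KO-labelled value was above both WT-labelled ones by far more than the replicates differed. The means were 3330 ± 64.5 and 8321 ± 904 (SD, n = 2 each), a 2.5-fold difference. The log2 difference was 1.32 (SE 0.0935, 95% interval 1.10 to 1.54, limma adjusted p = 6.54e-05). Of all tested genes, 8.31% had a higher log2 difference. Pdgfb lies on chromosome 15, 79995865 to 80024614 (GRCm38). The GENCODE M21 annotation places the antisense gene Gm41361 across it on the other strand, with 0 shared exonic bases.

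Pdgfa, whose homodimer signals through the alpha receptor, was lower. It had normalized counts of 2275 and 2431 in the libraries labelled WT and 1605 and 1412 in those labelled KO. Both KO-labelled values lay below both WT-labelled ones. The means were 2353 ± 110 and 1508 ± 136 (SD, n = 2 each), a 1.56-fold lower level. The log2 difference was -0.64 (SE 0.0983, 95% interval -0.88 to -0.41, limma adjusted p = 0.00174). Pdgfa lies on chromosome 5, 138976014 to 139000792. Of its 3119 exonic bases in GENCODE M21, 813 are also exonic in 6330403L08Rik on the other strand. The strand setting of the counting is not given in the sources used here, so reads of this antisense gene cannot be told apart from those of Pdgfa.

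Pdgfd, a beta receptor ligand that is activated by proteolysis, was higher by a smaller amount. Its normalized counts were 1683 and 1526 in the libraries labelled WT and 2248 and 2094 in those labelled KO, without overlap. The means were 1605 ± 111 and 2171 ± 109 (SD, n = 2 each), 1.35-fold apart. The log2 difference was 0.44 (SE 0.0938, 95% interval 0.21 to 0.66, limma adjusted p = 0.00764). This call was lost without KO replicate 1, where the log2 difference was 0.39 (limma adjusted p = 0.0507). Pdgfd lies on chromosome 9, 6168363 to 6534284, and the gene Ddi1 inside it on the other strand was listed at 0 in all 4 libraries.

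Pdgfc, the other ligand that needs removal of its CUB domain and one that acts through the alpha receptor, had normalized counts of 1601 and 1833 in the libraries labelled WT and 1680 and 1702 in those labelled KO. The KO-labelled values lay between the WT-labelled ones. The log2 difference was -0.02 (SE 0.0983, limma adjusted p = 0.888), and its 95% interval of -0.25 to 0.21 spans 0.84-fold to 1.16-fold. A larger change in either direction lies outside that interval, while a smaller one was not detectable with 2 libraries a group. Pdgfc lies on chromosome 3, 81036416 to 81214040, and shares 147 of 5089 exonic bases with the antisense gene Gm16000.

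**Figure D2:**
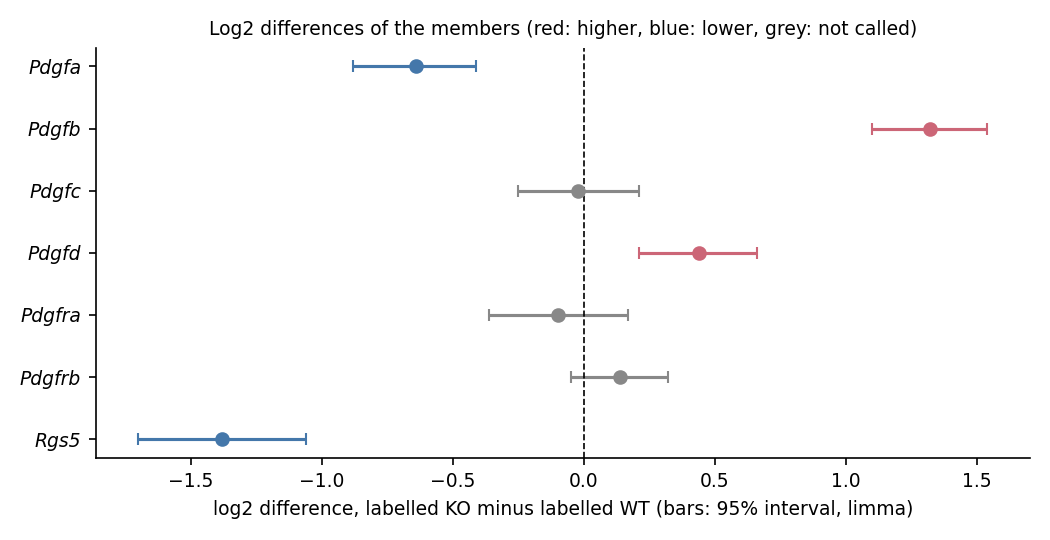
Log2 differences (horizontal axis, libraries labelled KO minus those labelled WT) of the 7 genes (vertical axis) with limma's 95% intervals as bars; red points were called higher, blue points lower and grey points were not called. The intervals of Pdgfb (1.10 to 1.54) and Rgs5 (-1.70 to -1.06) lie farthest from 0, and those of Pdgfc, Pdgfra and Pdgfrb include 0.

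The receptor genes were the most abundant members in read counts and differed little between the groups. Pdgfra, which encodes the alpha receptor, had normalized counts of 23124 and 26832 in the libraries labelled WT and 21677 and 24965 in those labelled KO. The groups overlapped, and the spread within each was wider than the distance between the means of 24978 ± 2622 and 23321 ± 2326 (SD, n = 2 each). Its log2 difference was -0.10 (SE 0.112, limma adjusted p = 0.489), with a 95% interval of -0.36 to 0.17, or 0.78-fold to 1.12-fold. Pdgfra lies on chromosome 5, 75151322 to 75198206. It shares 456 and 166 of its 10024 exonic bases with the opposite-strand genes Gm42802 and Gm42803.

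Pdgfrb, which encodes the beta receptor, had normalized counts of 9972 and 9582 in the libraries labelled WT and 11089 and 10399 in those labelled KO. The groups did not overlap, as for 78.5% of all tested genes, but the difference did not pass the test. The means were 9777 ± 275 and 10744 ± 488 (SD, n = 2 each). On the log2 scale they differed by 0.14 (SE 0.0775, limma adjusted p = 0.183). The 95% interval of -0.05 to 0.32 allows at most a 1.25-fold higher level and a 0.97-fold one at the other end. Pdgfrb lies on chromosome 18, 61045127 to 61085067, and GENCODE M21 has no other gene across it.

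Rgs5 had the deepest fall of the members. Its normalized counts were 2476 and 2231 in the libraries labelled WT and 798 and 1025 in those labelled KO. Both KO-labelled values were well below the lower WT-labelled one. The means were 2354 ± 173 and 912 ± 161 (SD, n = 2 each), a 2.58-fold lower level. The log2 difference was -1.38 (SE 0.136, 95% interval -1.70 to -1.06, limma adjusted p = 0.000253), and 6.18% of all tested genes had a lower one. Rgs5 lies on chromosome 1, 169655501 to 169695813. In bulk tissue, fewer cells of a type and less RNA per cell cannot be told apart, here or for the other genes.

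The windows before the start sites are shown for the called members that have an entry in RefSeq's promoter table (GRCm38.p6), which covers 5 of the 7 members and lists 2 starts for Pdgfa. Each line gives the 250 bases before a start listed in that table, 5′ to 3′ on the gene's strand, with motif matches in capitals. Those starts need not be the ends of the gene spans given above: 123 bases of the Pdgfd window lie inside its span, and the Pdgfa windows lie 5598 and 6261 bases inside its span, on the minus strand.
Rgs5, chr1:169655251-169655500, plus strand: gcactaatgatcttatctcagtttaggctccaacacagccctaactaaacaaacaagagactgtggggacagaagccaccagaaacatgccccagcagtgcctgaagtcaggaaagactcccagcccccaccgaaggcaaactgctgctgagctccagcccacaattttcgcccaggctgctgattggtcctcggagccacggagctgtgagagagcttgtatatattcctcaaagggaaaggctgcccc
Pdgfd, chr9:6168236-6168485, plus strand: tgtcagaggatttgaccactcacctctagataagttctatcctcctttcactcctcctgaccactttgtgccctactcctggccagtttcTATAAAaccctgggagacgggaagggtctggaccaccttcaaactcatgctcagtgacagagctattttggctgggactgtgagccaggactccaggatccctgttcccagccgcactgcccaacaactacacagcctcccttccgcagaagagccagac
Pdgfa, chr5:138994945-138995194, minus strand: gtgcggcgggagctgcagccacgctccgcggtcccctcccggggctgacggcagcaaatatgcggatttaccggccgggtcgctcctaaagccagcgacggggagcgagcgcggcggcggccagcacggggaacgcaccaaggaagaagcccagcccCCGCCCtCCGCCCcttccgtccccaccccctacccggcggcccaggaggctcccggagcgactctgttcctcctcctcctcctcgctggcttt
Pdgfa, chr5:138994282-138994531, minus strand: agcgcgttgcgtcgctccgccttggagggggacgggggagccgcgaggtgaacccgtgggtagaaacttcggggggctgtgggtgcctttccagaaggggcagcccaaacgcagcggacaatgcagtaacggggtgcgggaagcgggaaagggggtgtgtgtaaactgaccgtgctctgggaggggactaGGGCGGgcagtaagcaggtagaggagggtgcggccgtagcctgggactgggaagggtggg

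The windows differed in base composition. The Pdgfa windows were 72.4% and 66.4% G and C, against a median of 52.4% (quartiles 45.2% and 61.2%) over 32851 windows of this length, while those of Rgs5 and Pdgfd were both at 53.6%. On both strands, the AP-1 motif TGANTCA, the EGR motif GCGNGGGCG, the GC box GGGCGG, the TATA box TATAAA and the CArG box were searched. No matches overlapped in the windows shown. The upstream Pdgfa window held 2 GC boxes and the other held 1, a motif present in 32.7% of all windows. The Pdgfd window held 1 TATA box (12.4% of all windows), and the Pdgfc window held 1 CArG box (1.47% of all windows). The Rgs5 and Pdgfra windows held none of the 5 motifs. All 250 bases of the Pdgfra window, which is not shown, lie inside its gene span, 679 bases from the span's start. AP-1 and EGR motifs, present in 6.75% and 4.70% of all windows, were found in none of the windows of these 5 genes, which says only that these letters are not in these bases.

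Levels of different genes were compared as RPKM, reads scaled by exon length in kilobases and by library total, with the exon lengths of the basic transcript set of GENCODE M21. In the libraries labelled WT, Pdgfra was highest at 71.3 ± 7.16, followed by Pdgfrb at 44.7 ± 1.46, Pdgfb at 28.3 ± 0.676 and Pdgfa at 20 ± 0.848 (SD, n = 2 each). Rgs5, Pdgfd and Pdgfc followed at 13.0 ± 1.01, 12.7 ± 0.941 and 12.2 ± 1.11, and these last 3 did not differ beyond their spread. In the libraries labelled KO, Pdgfb at 72.8 ± 6.99 and Pdgfra at 68.6 ± 7.72 did not differ beyond their spread. Pdgfrb followed at 50.6 ± 1.65, Pdgfd at 17.7 ± 0.661, Pdgfa at 13.2 ± 1.02 and Pdgfc at 12.4 ± 0.277, the last pair again within their spread, and Rgs5 was last at 5.18 ± 0.977. With the longest transcript in place of all exons as the length, an alternative chosen after seeing the data, Pdgfa (28.6) and Pdgfb (28.3) were level in the libraries labelled WT, and Pdgfra (88.1) stood above Pdgfb (72.8) in those labelled KO. With all exons of the full GENCODE M21 set, the one behind the exonic bases given above and likewise added after seeing the data, Pdgfb (20 ± 0.479) and Pdgfa (18.9 ± 0.8) were close in the libraries labelled WT, and Pdgfc stood at 8.44 ± 0.77, below Rgs5 and Pdgfd. In those labelled KO, Pdgfb (51.5 ± 4.94) was then beside Pdgfrb (50.6 ± 1.65) and below the mean of Pdgfra (60 ± 6.76). The places of Pdgfb and Pdgfc in the order thus depend on the gene length used.

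**Figure D3:**
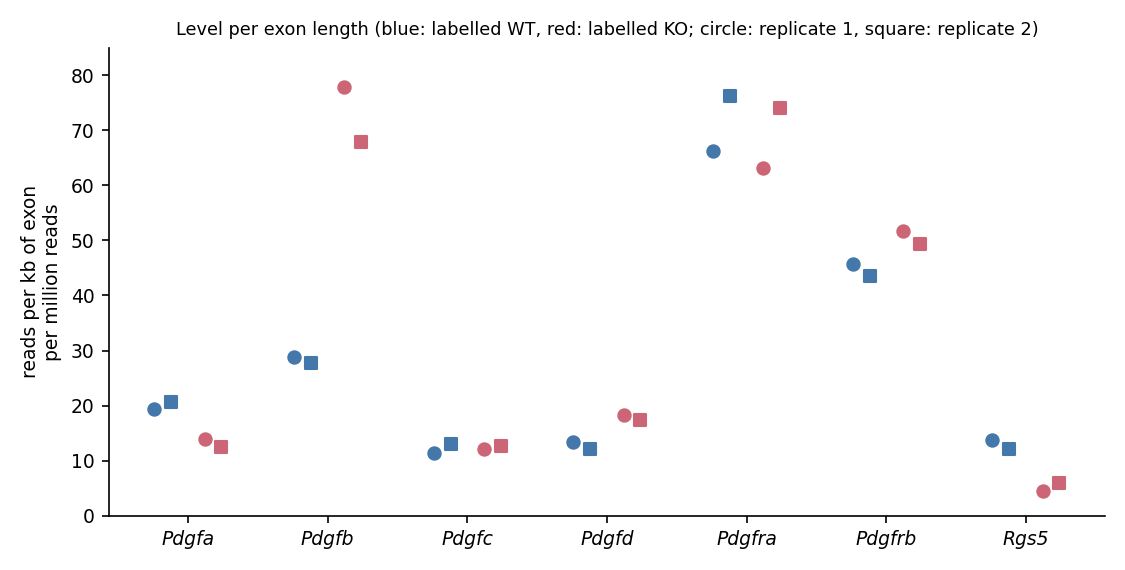
RPKM (vertical axis, from 0) of the 7 genes (horizontal axis); blue marks are libraries labelled WT, red marks those labelled KO, circles replicate 1 and squares replicate 2. Pdgfb stands at 28.8 and 27.8 in blue and at 77.8 and 67.9 in red, where Pdgfra stands at 63.2 and 74.1.

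The make-up of the ligand transcripts shifted toward the B chain. Per exon length, Pdgfb made up 39.4% and 37.9% of the 4 ligands in the libraries labelled WT and 63.7% and 61.6% in those labelled KO. The share of Pdgfa went from 26.6% and 28.0% to 11.4% and 11.3%. Pdgfc held 15.6% and 17.7% against 9.98% and 11.4%, and Pdgfd 18.4% and 16.4% against 14.9% and 15.7%. Pdgfd thus had a smaller share of the sum while its own level was higher, although with the full exon set its shares of 22.3% and 20.1% against 19.2% and 20.1% met. At the same time, the summed level of the 4 genes went from 73.0 and 73.5 to 122 and 110 in the same unit. The ratio of Pdgfb to Pdgfa was 1.48 and 1.35 in the libraries labelled WT and 5.58 and 5.44 in those labelled KO, and these groups did not overlap. With the full exon set it was 1.11 and 1.01 against 4.19 and 4.08, and Pdgfb made up 34% and 32.7% against 58% and 56% of the ligands. The ratio of Pdgfb to Pdgfrb was 0.630 and 0.638 against 1.5 and 1.37 (0.446 and 0.451 against 1.06 and 0.972 with the full exon set), and that of Pdgfra to Pdgfrb was 1.45 and 1.75 against 1.22 and 1.5, with overlap. For a single value, the smallest two-sided exact permutation p that 2 libraries against 2 allow is 0.33, so these ratios are given without a test.

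The pericyte markers, listed without Pdgfrb and Rgs5, went both ways. Of 16, 9 were lower (24.9% of all tested genes), 4 higher, a share near the 26.3% of all tested genes, and 3 not called, with a median log2 difference of -0.69 beside 0.00291 over all tested genes. Art3, an ADP-ribosyltransferase family gene, had normalized counts of 470 and 400 against 117 and 120, a 3.68-fold lower mean (log2 difference -1.86, limma adjusted p = 0.000201). Higd1b was 5.63-fold lower, and Abcc9, the sulfonylurea receptor subunit of the potassium channel of pericytes, was 2.74-fold lower. Its partner subunit gene Kcnj8 was 1.46-fold lower. The members that rose were Gucy1a1, a subunit of the nitric oxide receptor guanylate cyclase, by a log2 difference of 0.99, Heyl, a Notch target, by 0.63, the proteoglycan gene Cspg4, which encodes NG2, by 0.54 and Mcam by 0.42. Notch3, the Notch receptor of mural cells, had a log2 difference of -0.03 (limma adjusted p = 0.79). Kcnj8, Heyl, Cspg4, Mcam and Notch3 were chosen after their values were seen.

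Set beside these markers in each library, the beta receptor and Rgs5 both lay above their mean level, and shifted in opposite directions relative to it. Pdgfrb lay above the mean log2 level of the 16 markers by 3.72 and 3.65 in the libraries labelled WT and by 4.61 and 4.42 in those labelled KO. Rgs5 lay above it by 1.71 and 1.55 against 0.82 and 1.08. The groups did not overlap in either case. The mean log2 level of the markers itself differed by -0.69, which makes up most of the shift of Pdgfrb. Pdgfrb alone had a log2 difference of 0.14 and was not called. With the median of the markers in place of the mean, the shift between the groups went from 0.83 to 0.51 for Pdgfrb and from -0.68 to -1.0 for Rgs5. The per-length ratio of Rgs5 to Pdgfrb was 0.299 and 0.281 in the libraries labelled WT and 0.0867 and 0.119 in those labelled KO.

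Other genes of the R4 subfamily of RGS proteins, to which Rgs5 belongs, were higher or not called. Of 8, 7 were tested, of which limma called 4 higher and 0 lower (26.3% and 24.9% of all tested genes), with 3 not called. RGS genes called lower numbered 0 with edgeR and with DESeq2 as well, and 1, Rgs4, was lower at an unadjusted p under 0.05. Rgs16 had normalized counts of 69.9 and 71.6 in the libraries labelled WT and 2045 and 2016 in those labelled KO, a 28.7-fold difference (log2 difference 4.82, limma adjusted p = 3.24e-06). Rgs8 had no reads in the libraries labelled WT and 64.4 and 52.8 in those labelled KO, which is at least 39.5-fold higher when the WT group is set to a floor of 3 reads in all. Rgs1, known from leukocytes, went from 15.8 and 6.96 to 54.7 and 93.3 (log2 difference 2.65, limma adjusted p = 0.0038). Rgs4, a near relative of Rgs5 that pericytes also express and that was chosen after its values were seen, had 719 and 735 against 542 and 619 (log2 difference -0.33, limma adjusted p = 0.0605).

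Contractile genes of vascular smooth muscle, the other mural cell, rose for the most part. Of 12, 8 were higher (26.3% of all tested genes), 1 (Smtn) was lower (24.9%) and 3 were not called, with a median log2 difference of 1.39. Myocd, the coactivator that switches on the contractile program, went from 15.8 and 24.8 to 250 and 402, and Actg2, a smooth muscle actin, from 8.86 and 16.9 to 198 and 238. Tpm2, a tropomyosin gene, was 2.83-fold higher (log2 difference 1.49, limma adjusted p = 0.000201). Without KO replicate 2, a second gene, Mylk, was also lower, so that the count was 2. Smtn and Mylk were chosen after their values were seen. Myofibroblasts express many of the same genes, so the cells in which they rose cannot be told from bulk counts.

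**Figure D4:**
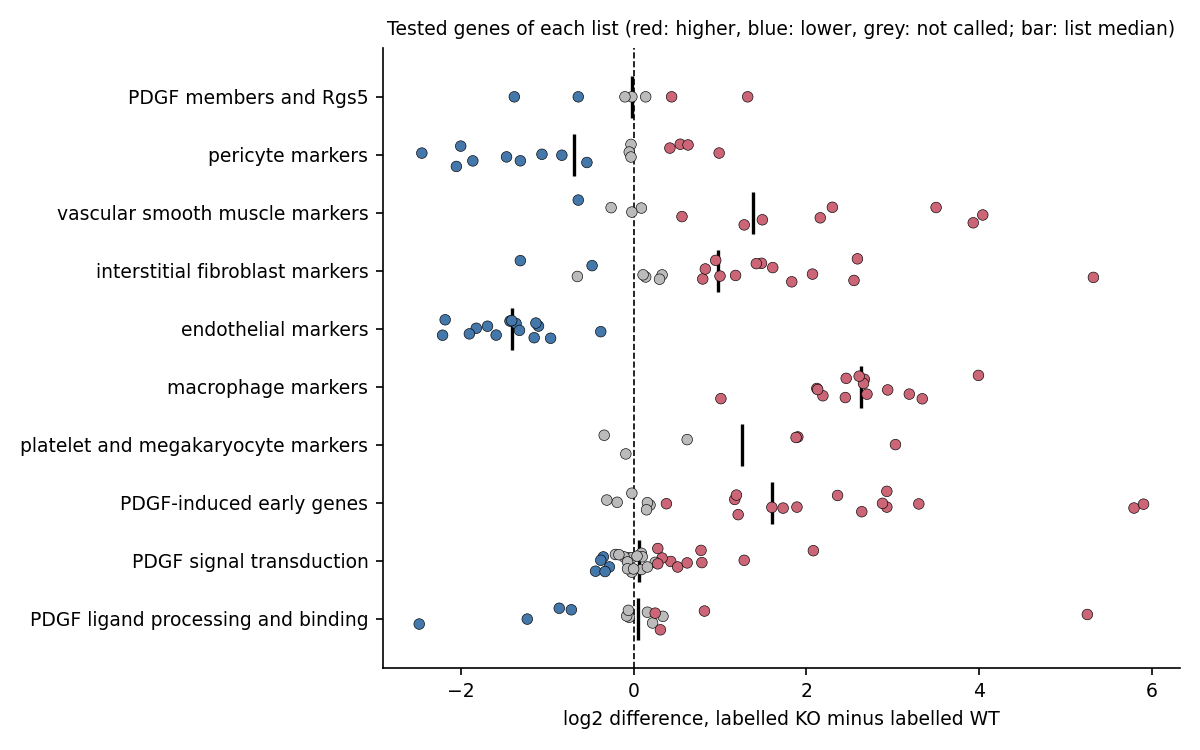
Log2 differences (horizontal axis, libraries labelled KO minus those labelled WT) of the tested genes of 10 lists (vertical axis); each point is a gene, red if called higher, blue if lower and grey if not called, and bars are list medians. The pericyte markers have a median of -0.69 and the endothelial ones one of -1.41, and the smooth muscle and macrophage markers have medians of 1.39 and 2.64.

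Interstitial fibroblasts are the usual carriers of the alpha receptor, and most of their markers rose while Pdgfra did not pass the test. Of 20 markers, 13 were higher (26.3% of all tested genes), 2 lower (24.9%) and 5 not called, with a median log2 difference of 0.98. Col1a1, a chain of type I collagen, was 5.97-fold higher, Loxl1, a collagen and elastin crosslinking enzyme, 5.89-fold, and Mfap5, a microfibril protein, 39.8-fold, from 88.6 and 136 to 3897 and 5043. The lower ones were Cd34, which endothelium also expresses, and Tcf21, a transcription factor of renal stroma, with log2 differences of -1.31 and -0.48, both chosen after their values were seen. The 5 not called were Dcn, Meis1, Gli1, Nt5e and Foxd1, also named after their values were seen. Their log2 differences were 0.33, 0.14, 0.30, 0.11 and -0.65, so not all markers of these cells rose. Without WT replicate 1, and likewise without KO replicate 1, only 1 of the 20 was lower. Pdgfra lay above the mean log2 level of these markers by 3.33 and 3.38 in the libraries labelled WT and by 2.14 and 2.16 in those labelled KO, a shift of -1.20, or -0.86 against the median of the markers. Most of that shift was in the markers, whose mean log2 level differed by 1.10, beside -0.10 for Pdgfra itself.

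Mesangial and renin-lineage markers, which a dissection can carry along and whose cells bear the beta receptor, had 5 of 8 lower, 2 higher (24.9% and 26.3% of all tested genes) and 1 not called, with a median log2 difference of -1.74. Ren1, renin, was 15.5-fold lower, at 818 and 1287 against 52.6 and 82.9, and Itga8, an integrin subunit of mesangial and stromal cells, 5.72-fold lower. Serpine2, a protease inhibitor, was 5.21-fold higher. Podocyte markers, which would show glomeruli in the dissection, had 3 of 6 lower, 1 higher (again beside 24.9% and 26.3%) and 2 not called, with a median log2 difference of -0.90, and their summed counts were 16680 and 17868 against 11667 and 12140. How far glomerular cells bear on the receptor counts was not tested.

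Endothelium, a main source of PDGF-B in vessels, had lower marker levels in the libraries in which Pdgfb was higher. All 15 endothelial markers were lower (24.9% of all tested genes were), with a median log2 difference of -1.41 and summed counts of 109316 and 111251 against 39395 and 37857. Tek, the angiopoietin receptor, Emcn and Plvap, a protein of fenestral diaphragms, were 3.73-fold, 3.54-fold and 4.53-fold lower. Relative to the mean log2 level of these markers, Pdgfb stood at -0.66 and -0.70 in the libraries labelled WT and at 2.19 and 1.97 in those labelled KO. Pdgfd, also known from endothelium and arterial walls, went from -1.67 and -1.80 to 0.19 and 0.10 on the same scale. The shifts were 2.76 and 1.88, and 2.64 and 1.76 against the median of the markers. The mean log2 level of the markers itself differed by -1.44, which makes up most of the shift of Pdgfd. Alone, Pdgfb had a log2 difference of 1.32 and Pdgfd one of 0.44.

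**Figure D5:**
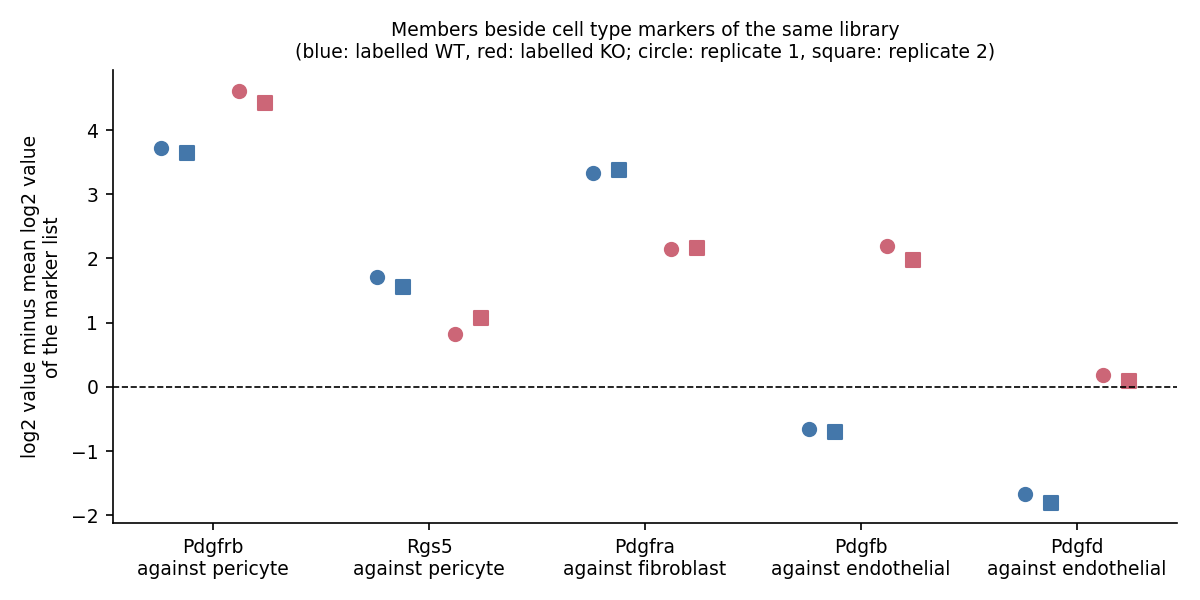
Log2 value of a member minus the mean log2 value of a cell type's markers in the same library (vertical axis) for 5 pairs of member and list (horizontal axis); blue marks are libraries labelled WT, red marks those labelled KO, circles replicate 1 and squares replicate 2. Pdgfb lies below the endothelial markers at -0.66 and -0.70 in blue and above them at 2.19 and 1.97 in red, and Pdgfra against fibroblast markers goes from 3.33 and 3.38 to 2.14 and 2.16.

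Macrophages and platelets are further known sources of PDGF-B and PDGF-A. All 14 macrophage markers were higher (26.3% of all tested genes were), with a median log2 difference of 2.64 and summed counts of 15829 and 12427 against 69824 and 63508. The complement genes C1qa and C1qc were 6.37-fold and 5.52-fold higher and Lyz2, lysozyme, 7.63-fold. Of 10 platelet and megakaryocyte markers, 6 were tested, of which limma called 3 higher and 0 lower (26.3% and 24.9% of all tested genes). Those called lower numbered 0 with edgeR and with DESeq2 too. The higher ones were Itgb3, Pf4 and Ppbp, of which macrophages can express Pf4 and many cells Itgb3. Of the other platelet genes, Itga2b was detected at normalized counts of 189 and 212 against 215 and 164, and Gp1ba and Gp1bb ranged from 18.8 to 30.5 and from 13.9 to 34.9, with no call. Gp6 was listed at 0 in 3 libraries and at 0.994 in the other, and Gp9 ranged from 0.985 to 2.98. These 5 genes were chosen after their values were seen. The part of macrophages in the rise of Pdgfb was not tested.

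Genes that process or bind the ligands were called in both directions. Of 14, 4 were higher, 4 lower and 6 not called, shares near the 26.3% and 24.9% of all tested genes, with a median log2 difference of 0.05. Pcsk6, a proprotein convertase, had normalized counts of 3755 and 5722 against 819 and 840, a 5.71-fold lower mean, and Pcsk7, a related convertase, was 1.82-fold lower. Plau, urokinase, a protease that can activate PDGF-D, had 82868 and 76384 against 35174 and 32615 and was 2.35-fold lower (log2 difference -1.23, limma adjusted p = 0.000111). Ndst1, an enzyme of heparan sulfate synthesis, was 1.65-fold lower. Lrp1, a co-receptor of the beta receptor, was 1.77-fold higher, at 8978 and 8976 against 15961 and 15837. Furin, a convertase of the A and B chains, and Plat, the tissue plasminogen activator that cleaves PDGF-C, had log2 differences of -0.05 and -0.06 and were not called (limma adjusted p = 0.625 and 0.689). Furin and Plat were chosen after their values were seen. The count of higher genes was 2 without WT replicate 2 and 2 without KO replicate 1.

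Among 30 adaptors, kinases and phosphatases that relay PDGF receptor signals, 10 were higher, 5 lower and 15 not called, with a median log2 difference of 0.06. These shares, 10 of 30 and 5 of 30, stood beside 26.3% and 24.9% of all genes. Stat3, a transcription factor that many cytokines also activate, had normalized counts of 5979 and 5701 against 14568 and 13725, a 2.42-fold difference (log2 difference 1.28, limma adjusted p = 3.63e-05). Src, a kinase recruited to both receptors, was 1.72-fold higher, Ptpn1, a phosphatase that acts on the receptors, 1.73-fold and Shc1, an adaptor, 1.35-fold. Sla, a Src-like adaptor of leukocytes, was 4.28-fold higher, beside the higher macrophage markers. Leaving out KO replicate 1 left 6 higher and 2 lower, and 2 were also lower without WT replicate 1 and without KO replicate 2. Fewer of all tested genes were called in those fits as well. The abundance of the signal transduction transcripts does not measure the activity of the pathway.

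Early genes that PDGF induces in cultured fibroblasts, and that many other stimuli induce too, were for the most part higher. Of 22, 21 were tested, of which limma called 15 higher and 0 lower (26.3% and 24.9% of all tested genes), with 6 not called and a median log2 difference of 1.6. Early genes called lower numbered 0 with edgeR and with DESeq2 too, and 1, Spry4, was lower at an unadjusted p under 0.05. The zinc finger factor genes Egr1 and Egr2 had normalized counts of 930 and 692 against 8363 and 7441 and of 24.6 and 31.8 against 1837 and 1403. The AP-1 genes Jun, Junb and Fos were 3.32-fold, 5.16-fold and 6.29-fold higher. Not all feedback genes of the pathway followed. Spry2 and Spry4, inhibitors of receptor kinase signalling, had log2 differences of 0.15 and -0.31 that were not called. Dusp6, of the same list, was higher by a log2 difference of 0.38 (limma adjusted p = 0.0131). Spry2, Spry4 and Dusp6 were chosen after their values were seen. Without WT replicate 1 and without KO replicate 1, 1 gene was lower in each case (Dusp1 and Spry4). Macrophage markers rose and tubule markers fell in the same libraries, and their part in these values was not tested.

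Among relatives of the family, most VEGF genes and their receptors were lower, and the growth factor genes of macrophages were higher. The PDGFs belong with the VEGFs to a family of cystine-knot growth factors, and PDGF receptors with Kit, Csf1r and Flt3 to the class III receptor tyrosine kinases. Of 15 such genes, 6 were higher, 8 lower (26.3% and 24.9% of all tested genes) and 1, Kit, was not called, with a median log2 difference of -0.78. Vegfa, the main endothelial growth factor, had 15715 and 15846 against 4976 and 4534, a 3.32-fold lower mean (log2 difference -1.73, limma adjusted p = 1.38e-05), and its receptor genes Kdr and Flt1 were 2.53-fold and 2.36-fold lower, beside the lower endothelial markers. Vegfc, a lymphatic growth factor, was higher by a log2 difference of 0.54. Csf1, the macrophage growth factor, was 3.48-fold higher and its receptor gene Csf1r 2.5-fold, beside the higher macrophage markers. The part of these cell types in the values was not tested. Kit and Vegfc were chosen after their values were seen.

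Genes with the closest profiles over the 4 libraries were sought among 13520 tested genes with a mean of at least 50, by the Euclidean distance between centred log2 values. For Pdgfb they were Neurl3 and Fjx1, at distances of 0.031 and 0.0459, and Neurl3 had normalized counts of 597 and 573 against 1541 and 1352. For Rgs5 AW011738 was at 0.0653, and for Pdgfa Tmem201 and Slc25a4 were at 0.0186 and 0.0313. For Pdgfd they were Carmil1 and Itga5, and for Pdgfra, Pdgfrb and Pdgfc they were Cul9 and Tssk6, Psmd11 and Pitpnb, and Pias4 and Ppfibp2. With 4 libraries many genes lie close: 34 lay within 0.2 of Rgs5 and 104 of Pdgfb, but 2406 of Pdgfrb.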

How the data were processed

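Total RNA of kidney medulla at postnatal day 14 was isolated from 2 animals per genotype, per the labels' protocols, and each library was taken as 1 animal. The authors deposited 1 signal value per gene and library, gene read counts divided by a size factor. Within each column 100% of the values were whole multiples of 1 step within 0.001, which gave the recovered reads. The submitters' processing notes name HISAT2 2.2.1, fastp 0.20.1, DESeq2 2.11.40.7 and featureCounts 2.0.1 as tools, and GRCm38 and mm10 as builds. No annotation, strand setting or treatment of multiply mapped reads is named in them.

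Entrez IDs were matched to RefSeq symbols of GRCm38.p6 (25275 of 27179 IDs). The two-sided test of limma 3.58.1 (R 4.3.3), with its variance trended on the mean, was fitted to log2(value + 1) for 16253 genes with a mean of at least 10; 10926 were not tested. The log2(value + 1) scale understates the change of low genes. Each gene had 2 residual degrees of freedom, and 6.96 with the shared variance. The limma fit was tested on simulated data with known changes in a small part of the genes. Those changes were all larger than those of Pdgfd and Pdgfa, so that test does not bear on calls of their size. All 207 genes of 15 lists were found. The members and lists were chosen with earlier results of these data known. Named are the members, Actr3, up to 5 genes with the smallest adjusted p of each pathway or pericyte list and up to 3 of each other list, and the 2 nearest profiles per member. Of the genes so chosen, some are not reported here. Other settings tried were the pseudocount, the filter, the scaling and the variance model, edgeR 4.0.16 and DESeq2 1.42.0 on recovered reads, a replicate block, and leaving out each library, where the single library left takes the spread of the other group. Replicates differed by more than sampling noise (chi-square per degree of freedom 23.4 and 17.7). Lower bounds and floors cover counting error only.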

Additional observations from a re-analysis of the deposited data

How the results depend on the processing

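Each member was refitted under 15 alternatives. Pdgfb, Pdgfa and Rgs5 kept their direction and their call in all of them, with log2 differences of 1.21 to 1.43, -0.74 to -0.55 and -1.56 to -1.20, and Pdgfrb was never called (0.09 to 0.18). Without each library in turn, Pdgfd ranged from 0.37 to 0.51 and lost its call without KO replicate 1 (0.39, adjusted p = 0.0507), so that 1 to 2 members were higher. Pdgfc ranged from -0.12 to 0.08 and Pdgfra from -0.21 to 0.01, both uncalled throughout. The numbers of libraries are only labels: the deviations of same-numbered libraries correlated at -0.0564 across genes, and with a replicate block 2 members were higher and 2 lower, with 3810 genes higher and 3619 lower in all against 4277 and 4051.

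Counts within lists moved more. DESeq2 called 6 ligand processing genes higher, and 4006 of all tested genes. With no variance trend, signal transduction genes had 6 higher and 2 lower, ligand processing genes 2 higher and fibroblast markers 1 lower. Without each library in turn, signal transduction genes had 6 to 9 higher and 2 to 6 lower, ligand processing genes 2 to 3 higher, early genes 0 to 1 lower, smooth muscle markers 1 to 2 lower and fibroblast markers 1 to 2 lower. With a mean of at least 50, 2 RGS genes were higher, since Rgs1 and Rgs8 fell below that filter and were not tested. After quantile normalization 1 RGS gene was lower and 1 tubule marker, Umod, higher. With the median over a list, the shifts relative to it were 0.51 for Pdgfrb, -1.0 for Rgs5, -0.86 for Pdgfra and 1.76 for Pdgfd. The cause was not tested in any of these. With 2 libraries a group, small differences were not detectable.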
